A study of Mus musculus with 2 samples.

Results

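Foxp3-positive regulatory T cells of the mouse intestine were described in 2 droplet single-cell RNA libraries. Members were chosen by their counts of unique molecular identifiers (UMIs, each a counted RNA molecule): at least 2 summed over Cd3d, Cd3e and Cd3g, at least 1 of Foxp3, and none of Trdc, Cd79a or Epcam. Only barcodes with 500 or more UMIs, 250 or more genes and no more than 25% mitochondrial UMIs were kept. Of 15156 barcodes within the quality limits, 121 were members, 54 in the RA mouse and 67 in the butyrate mouse. The RA library came from the whole intestine of 1 wild-type mouse kept on standard chow, from the group the design calls CIA, the usual short name of collagen-induced arthritis. The butyrate library came from the whole intestine of 1 wild-type mouse on a 1% butyrate diet. The labels used here do not say whether the mouse on butyrate also had arthritis, nor the strain, age or sex of either mouse. With 1 mouse and 1 library per group, mouse, library, diet and disease cannot be told apart, and no test between the groups was possible.

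Regulatory T cells are the CD4 T cells that hold back immune responses, and their identity is set by the transcription factor Foxp3. They depend on interleukin 2, which they take up through the high-affinity receptor chain CD25 (Il2ra), and they act through the inhibitory receptor Ctla4, the cytokine interleukin 10 and other products. In the gut a thymus-derived kind, marked by Helios (Ikzf2), Gata3 and the interleukin 33 receptor ST2 (Il1rl1), lives beside a kind induced by microbes, marked among others by Maf. Butyrate, a short-chain fatty acid made by gut bacteria, inhibits histone deacetylases and has been linked to the formation of the induced kind.

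The members had a median depth of 4829 UMIs in the RA library (range 2251 to 25547) and 4546 in the butyrate library (2494 to 27831). Values are given below as CPM (counts per 1000000), the UMIs of a gene summed over a set of cells and scaled to that many UMIs of the set. The member sets summed to 337889 and 400015 UMIs. The cells set beside them were Foxp3-negative Cd4 T cells, which passed the same rule with no Foxp3 UMI, at least 1 Cd4 UMI and no Cd8a or Cd8b1 UMI. They numbered 209 (median 5978 UMIs) and 447 (median 5825). Since 26 of 54 and 31 of 67 members had only 1 Foxp3 UMI, cells with none can include regulatory T cells whose Foxp3 RNA was not counted. This holds for the comparison cells and for the T cells in the shares below. How many such cells there were was not tested. The whole libraries held 61912439 and 67894477 UMIs over 10140 and 9959 barcodes. The deposited barcodes started at 501 UMIs for the RA mouse and at 2313 UMIs for the mouse on butyrate. The libraries shared 27 barcodes, none of them a member. All intervals are 95% and cover counting error only, and since the UMIs of a cell are not independent they are narrower than the error between mice.

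The label was checked against the defining markers. Foxp3, by which the cells were selected, had 1 to 8 UMIs per member in the RA mouse and 1 to 4 in the butyrate mouse, with a median of 2 in both. In cells that should lack it, a Foxp3 UMI was seen in 2 of 3112 B cells (median 4241 UMIs) and 0 of 695 epithelial cells (median 7941 UMIs) of the RA library, and in 5 of 4605 B cells (median 4618) and 0 of 838 epithelial cells (median 5989) of the butyrate library. The 0 counts allow shares up to 0.432% and 0.358%. Foxp3 lies on chromosome X at 7573644 to 7595245 (plus strand, mm10, GENCODE M21 gene ENSMUSG00000039521). The other 3 defining markers were not used to choose the cells.

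Ctla4 (chromosome 1, 60887000 to 60915832), the receptor that strips costimulatory ligands from dendritic cells, was found in 53 of 54 RA members and 67 of 67 butyrate members. The lowest, median and highest counts were 0, 12 and 66 UMIs in RA members and 1, 12 and 43 UMIs in butyrate members, ranges that overlapped almost fully. A Ctla4 UMI was also found in 71.3% and 72.9% of Foxp3-negative Cd4 T cells, so its presence alone separated members little from them. Ikzf2 (chromosome 1, 69531214 to 69687245), which encodes Helios, was found in 47 of 54 and 54 of 67 members, at 0, 12 and 48 UMIs and at 0, 8 and 67 UMIs. Il2ra (chromosome 2, 11642807 to 11693193) was found in 39 of 54 and 36 of 67 members, at 0, 1 and 13 UMIs and at 0, 1 and 8 UMIs. A marker could thus be missing in a single member while the set as a whole carried all of them. Of Foxp3-negative Cd4 T cells, 8.61% in the RA mouse and 8.95% in the butyrate library held an Il2ra UMI, against 72.2% and 53.7% of members. At 1000 UMIs per cell those member shares were 33.3% and 14.9%.

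**Figure D1:**
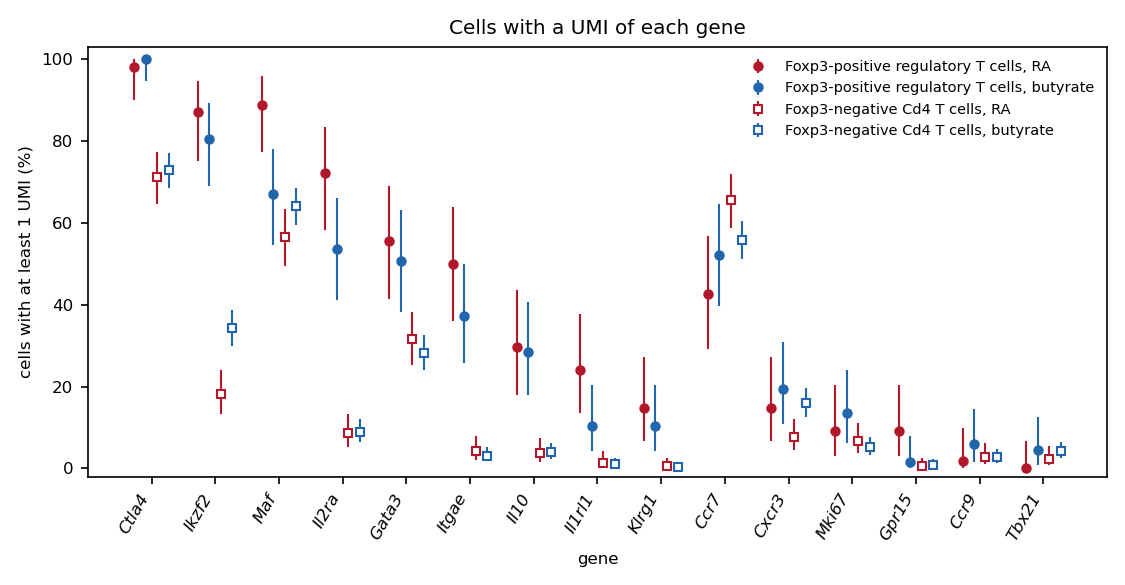
Share of cells with at least 1 UMI of each gene (y axis, percent; bars are exact binomial 95% intervals) in members (filled circles) and Foxp3-negative Cd4 T cells (open squares) of the RA library (red) and the butyrate library (blue). Ikzf2 was found in 87.0% and 80.6% of members against 18.2% and 34.2% of Cd4 T cells, while Ccr7 was found in 42.6% and 52.2% of members against 65.6% and 55.9%.

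Of kept barcodes with a Foxp3 UMI, 54 of 85 in the RA mouse and 67 of 118 in the butyrate mouse were members. Epcam, an epithelial surface protein, alone removed 15 and 31 further Foxp3-positive cells, of which 9 and 23 had a single Epcam UMI. Those left out by Epcam alone held Ctla4 at 1748 and 1245 CPM and Ikzf2 at 2479 and 2653 CPM, against 2353 and 2142 CPM and 2344 and 2230 CPM in members. Summed over them, the epithelial transcript Phgr1 was at 2403 and 767 CPM, against 85.8 and 57.5 CPM in members. A Phgr1 UMI was found in only 7 of these 15 RA cells and 5 of these 31 butyrate cells. The highest Epcam count among them was 14 and 79 UMIs. At least 1 Epcam UMI was also found in 17.9% and 17.0% of B cells. Cd79a alone removed 2 and 5 cells, a Cd3 sum under 2 removed 4 and 4, and Trdc alone removed 0 and 1. Members with exactly 1 Foxp3 UMI numbered 26 and 31 and had Ctla4 at 1791 and 1976 CPM. Just outside, the 537 and 1042 cells with no Foxp3 UMI had Ctla4 at 547 and 555 CPM and Ikzf2 at 427 and 344 CPM. Members with a Cd3 sum of exactly 2 numbered 3 and 3, and 1 and 3 cells with a sum of 1 met the rest of the rule.

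The share of members differed between the mice by more than counting error among T cells but not among all kept cells. Members were 54 of 6909 kept RA cells (0.782%, exact binomial interval 0.588 to 1.02) and 67 of 8247 kept butyrate cells (0.812%, 0.630 to 1.03). The ratio, butyrate over RA, was 1.04 (0.716 to 1.52). Among T cells by the same rule, whether Foxp3-positive or not, they were 54 of 591 (9.14%, 6.94 to 11.7) and 67 of 1109 (6.04%, 4.71 to 7.61), a ratio of 0.661 (0.455 to 0.964). The latter interval reached 1 when 2 Foxp3 UMIs were asked for (0.685, 0.407 to 1.17) and when 1 Cd3 UMI was enough (0.695, 0.481 to 1.01). It also reached 1 when up to 1 Epcam UMI was allowed (0.756, 0.542 to 1.06), an alternative added after the data were seen, and when all cells with 2 Cd3 UMIs were the denominator (0.687, 0.473 to 1.00). When the rule was applied to cells thinned to 1000 UMIs, 10 of 348 and 18 of 635 T cells were members, a ratio of 0.986 (0.432 to 2.39).

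Against Foxp3-negative Cd4 T cells of the same mouse, the members carried more RNA for suppressive products, costimulatory receptors and tissue-type genes, and less for naive T cell genes and helper cytokines. Of 7379 genes tested, which had at least 20 UMIs over the pair of sets in each library, 209 (2.83%) were at least 2-fold higher and 177 (2.4%) at least 2-fold lower in both libraries. Of all tested genes 34.9% had ratios above 1 in both libraries and 27.6% below 1 in both, and the median log2 ratio was 0.08 in the RA mouse and 0.02 in the butyrate library. These comparisons are descriptions of 2 libraries, and the 2-fold line takes the place of a test. Cd4 itself was used to choose the comparison cells and had UMIs in 30 of 54 and 31 of 67 members.

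**Figure D2:**
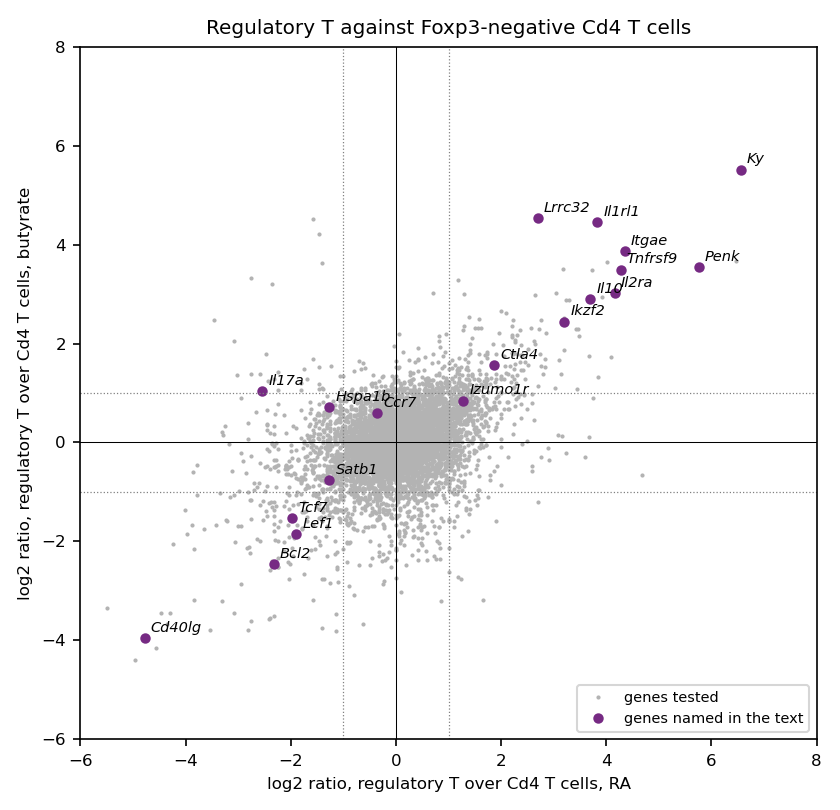
Each point is 1 of 7379 genes, placed by its log2 CPM ratio of members over Foxp3-negative Cd4 T cells in the RA library (x axis) and the butyrate library (y axis); dotted lines mark a 2-fold difference and purple points are named genes. Il2ra, Tnfrsf9, Itgae, Il1rl1 and Il10 lie in the upper right, Bcl2, Lef1 and Cd40lg in the lower left, and Il17a, Hspa1b and Ccr7 are lower in members in the RA mouse and higher in the butyrate mouse.

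Of the interleukin 2 receptor and signal list, 3 of 11 tested genes were 2-fold higher in both libraries and 1 was 2-fold lower. Il2ra stood at 423 CPM in RA members and 232 CPM in butyrate members, against 23.7 and 28.7 CPM in Cd4 T cells, ratios of 17.9 (12.1 to 27.1) and 8.11 (5.97 to 11). Il2rb, the signalling chain shared with the interleukin 15 receptor, had ratios of 3.06 and 2.28, and Socs2, a feedback inhibitor induced by cytokine signals, 10.8 and 4.88. The shared gamma chain Il2rg (1.22 and 1.13) and the signal transducers Stat5a (1.00 and 1.08) and Stat5b (0.796 and 0.981) were near the level of other Cd4 T cells. Il2ra, Il2rb and Socs2 were the 3 genes past 2-fold in both. The lower gene was Bcl2, a survival factor of resting T cells, at 88.8 and 57.5 CPM against 444 and 318 CPM, ratios of 0.200 (0.134 to 0.288) and 0.181 (0.114 to 0.273).

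Of the suppressive and repair products, 11 of 16 tested genes were 2-fold higher in both libraries, none was 2-fold lower, and all 16 had ratios above 1. Their median log2 ratio was 2.37 in the RA mouse and 1.68 in the butyrate mouse. Ctla4 was at 2353 and 2142 CPM against 649 and 721 CPM in Cd4 T cells (ratios 3.62 and 2.97). Il10, the suppressive cytokine, was at 210 and 240.0 CPM against 16.3 and 32.1 CPM, ratios of 12.9 (7.91 to 21.9) and 7.48 (5.57 to 10.1). It came from few cells: 16 of 54 and 19 of 67 members had an Il10 UMI, with up to 13 and 14 UMIs in a member. Lrrc32, which holds latent TGF-beta on the cell surface, had ratios of 6.47 and 23.3, and Itgb8, an integrin chain that activates it, 9.15 and 3.66. The ectonucleotidases that make adenosine, Entpd1 (CD39) and Nt5e (CD73), had ratios of 4.89 and 2.30 and of 3.73 and 3.46. Areg, a repair factor for epithelium, was found in 15 and 21 members and had ratios of 1.63 and 8.19, its level in Cd4 T cells being 47.3 CPM in the RA mouse and 11.6 CPM in the butyrate library. Penk, the enkephalin precursor, was found in 7 and 5 members only, with 28 of 56 butyrate UMIs in 1 cell. Il12a, a subunit of interleukin 35, had no UMI in members.

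Of the costimulators, 5 of 11 tested genes were 2-fold higher in both libraries and 10 had ratios above 1 in both (median log2 1.28 and 0.91). Tnfrsf9 (4-1BB) was at 1071 and 655 CPM against 55.4 and 58.0 CPM, ratios of 19.3 (15 to 25.1) and 11.3 (9.27 to 13.8). Its lowest, median and highest counts were 0, 4 and 30 UMIs in RA members and 0, 2 and 27 UMIs in butyrate members. Tnfrsf4 (OX40) had ratios of 5.74 and 2.95 and Tnfrsf18 (GITR) 3.45 and 2.27. Cd83, an activation marker, had 12.7 and 3.35. Icos (1.88 and 1.43) and Cd27 (1.40 and 1.35) differed less. Cd28, the first costimulator of naive T cells, was the exception at 0.733 and 0.906.

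Of the transcription regulators, 8 of 25 tested genes were 2-fold higher in both libraries and 1 was 2-fold lower (median log2 0.80 and 0.53). Ikzf2 had ratios of 9.19 and 5.45, and its relative Ikzf4 (Eos), a partner of Foxp3 in repression, 15.2 and 7.73. Rora was at 1953 and 1390.0 CPM, ratios of 3.26 and 2.20. Ahr, the receptor of dietary and microbial aryl compounds, had ratios of 5.10 and 3.10, and Prdm1 (Blimp-1), an effector regulator, 3.07 and 4.97. The lower one was Ikzf1 (Ikaros), at 0.457 and 0.376. Satb1, a chromatin organiser of naive T cells, was at 0.415 and 0.590.

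Of the thymic or tissue type genes, 5 of 6 tested were 2-fold higher in both libraries (median log2 1.41 and 2.73). Gata3 was found in 30 of 54 and 34 of 67 members and had ratios of 2.61 and 2.10. Il1rl1 was found in 13 and 7 members, with ratios of 14.2 (6.64 to 33.9) and 22.0 (10 to 53.1), and 12 of those 13 and 5 of those 7 also held a Gata3 UMI. Klrg1, a lectin receptor of differentiated cells, was found in 8 and 7 members, at 15 and 14 UMIs against 1 and 3 in all Cd4 T cells. Of the microbe-induced type genes, 4 of 8 tested were 2-fold higher in both. Maf, needed for interleukin 10 in these cells, was at 1281 and 925 CPM (ratios 2.59 and 1.66), and every RA member with an Il10 UMI (16 of 16) and 18 of 19 in the butyrate library held a Maf UMI, as did 48 of 54 and 45 of 67 of all members. Ikzf2 and Maf were found together in 41 of 54 and 35 of 67 members.

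Genes of naive and recirculating T cells were lower in members: 5 of 12 tested were 2-fold lower in both libraries, none 2-fold higher, and 10 had ratios below 1 in both (median log2 -1.34 and -0.62). Lef1 and Tcf7, factors that keep T cells naive, had ratios of 0.268 and 0.277 and of 0.254 and 0.347. Igfbp4 stood at 6 and 3 UMIs in members and had ratios of 0.0864 (0.0314 to 0.191) and 0.0725 (0.0149 to 0.214). Of 9 helper T cell cytokines tested, 7 had ratios below 1 in both libraries and 6 of these were 2-fold lower (median log2 -2.06 and -1.91). Cd40lg, the helper signal for B cells, was at 1 and 2 UMIs in members against 110 and 228 in Cd4 T cells. Ifng had 0 UMIs in members of either library against 50 and 117 UMIs, at least 4.16-fold and 5.32-fold lower when 3 UMIs are taken as the limit of each member set. Tnfsf11 (1.06 and 0.398) and Il17a were on different sides of 1 in the libraries. Il17a was at 29.6 CPM in RA members and 67.5 CPM in butyrate members against 172 and 32.8 CPM, with 23 of the 27 butyrate UMIs in 1 member.

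Of the homing receptors, 2 of 15 tested were 2-fold higher in both libraries and 1 was 2-fold lower. Itgae (chromosome 11, 73090583 to 73147446), the CD103 chain that binds epithelial E-cadherin, was found in 27 of 54 and 25 of 67 members and had ratios of 20.4 (10.8 to 41.5) and 14.7 (8.37 to 26.4). Ccr2, a receptor for entry into inflamed tissue, had ratios of 5.18 and 2.76. Cxcr5, the follicle receptor, had 0 and 2 UMIs in members against 31 and 99 in Cd4 T cells. Gpr15, a colon homing receptor, was found in 5 and 1 members, and Ccr9, the small intestine receptor, in 1 and 4, too few for a comparison.

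In several broad programmes at most 1 gene per list was 2-fold higher or lower in both libraries. All 12 tested genes of the NF-kB and TNF receptor response had ratios above 1 in both libraries (median log2 0.85 and 0.42), though only 1, the inhibitor Nfkbid, reached 2-fold in both. Nfkb1 was at 2.34 and 1.60 and Rel, needed for regulatory T cell formation, at 3.27 and 1.85. Of 13 tested cell cycle genes 10 were higher in both, the replication factor Mcm6 by 2-fold (list medians 1.07 and 0.52), and Mki67, a marker of dividing cells, was found in 5 and 9 members. This list leaned on few cells. It summed to 1358 and 1085 CPM in members, with 170 UMIs in 1 RA member and 124 in 1 butyrate member. Of the Mki67 UMIs, 16 of 24 in RA members and 15 of 39 in butyrate members were in 1 cell. Of 11 MHC class I genes 8 were higher in both and none by 2-fold (0.52 and 0.15), and of 10 interferon response genes 8 (0.69 and 0.20). Glycolysis had 8 of 13 genes above 1 in both libraries, fatty acid oxidation 2 of 9, histone deacetylases 2 of 7 and heat shock 6 of 12, none by 2-fold. Of 16 immediate early genes 4 were above 1 and 1, Egr1, was 2-fold lower. Short-chain fatty acid receptors could hardly be read in these cells: Ffar2 had 2 and 1 UMIs, Hcar2 1 and 0, Ffar3 and the transporter Slc5a8 none, and only the transporter Slc16a1 was tested, with ratios of 1.04 and 0.616.

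The highest ratios among genes in at least 10 members belonged to Ky, Itgae, Il1rl1, Frmd5, Myo1e, Penk, Tnfrsf9, Nckap5, Myo3b, Il2ra, Swap70, Ikzf4, Il10, Cd80 and Neb, ranked by the library with the smaller ratio. Ky, a muscle protease-like gene, was found in 17 of 54 and 11 of 67 members and was at 139 and 62.5 CPM against 1.48 and 1.36 CPM, ratios of 94.1 (24.6 to 799.7) and 45.8 (15.8 to 181). Myo1e, a membrane-bound myosin, was found in 38 and 38 members, with ratios of 16.1 and 12.5. Neb, the giant muscle protein nebulin, was found in 22 and 29 members, with ratios of 9.79 and 7.33. Frmd5 was found in 5 and 5 members. The lowest ratios, by the library with the ratio nearer to 1, belonged to Cd40lg, Hs3st3b1, Il12rb2, Themis, Atp8b4, Tdrp, Il22, Dapl1, Pim2 and Bcl2, all but Bcl2 at 0 to 10 UMIs in the members of a library. Among genes with a UMI in at least 10 members, they belonged to Bcl2, Ntrk3, Sidt1, Dennd2d, Stk26, Gtf2i, Tnfsf8, Slfn1, Lef1 and Myb. Slfn1, which is tied to T cell quiescence, had ratios of 0.0635 (0.0130 to 0.189) and 0.277 (0.150 to 0.471), and Myb, a factor of immature and stem-like cells, 0.199 and 0.290. Sidt1 was at 0.143 and 0.231.

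Promoter sequence is shown for the genes that set the members apart, since Foxp3 binds forkhead motifs and STAT5, the transducer of the interleukin 2 signal, binds TTCNNNGAA. RefSeq promoter windows (GRCm38.p6, 250 bases before to 50 after a start) of 12 of these genes, 16 windows in all, were searched on both strands for the forkhead letters TGTTTAC and for TTCNNNGAA. The windows of 4 genes held a match. The matches are shown in capitals with 30 bases on each side, plus strand, for Foxp3 (chrX:7580314-7580382), Il1rl1 (chr1:40439482-40439548), Tnfrsf9 (chr4:150927833-150927901) and Swap70 (chr7:110221566-110221632).
Foxp3: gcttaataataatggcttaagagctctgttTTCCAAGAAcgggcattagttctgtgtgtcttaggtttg
Il1rl1: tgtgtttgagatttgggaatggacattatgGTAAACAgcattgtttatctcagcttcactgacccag
Tnfrsf9: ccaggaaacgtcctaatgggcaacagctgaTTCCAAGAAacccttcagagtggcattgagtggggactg
Swap70: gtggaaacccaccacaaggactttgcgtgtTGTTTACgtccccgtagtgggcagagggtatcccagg
The Foxp3 and Tnfrsf9 matches are STAT5 motifs with the same letters, and the Il1rl1 and Swap70 matches are the forkhead motif, in Il1rl1 on the minus strand. Of 32851 promoter windows of this length, 1199 (3.65%) held the forkhead letters and 2726 (8.30%) the STAT5 letters, so the matches describe these windows and no more.

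Members differed among themselves in genes of recirculating and tissue-type cells, and were split by these after the data were seen. A UMI of Ccr7, the lymph node homing receptor, was found in 23 of 54 RA members (42.6%, 29.2 to 56.8) and 35 of 67 butyrate members (52.2%, 39.7 to 64.6). The ratio of these shares was 1.23 (0.705 to 2.17), within counting error of 1. The members with a Ccr7 UMI were deeper, with medians of 6636 and 5324 UMIs against 4775 and 3927, and the part of depth in the split was not tested.

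**Figure D3:**
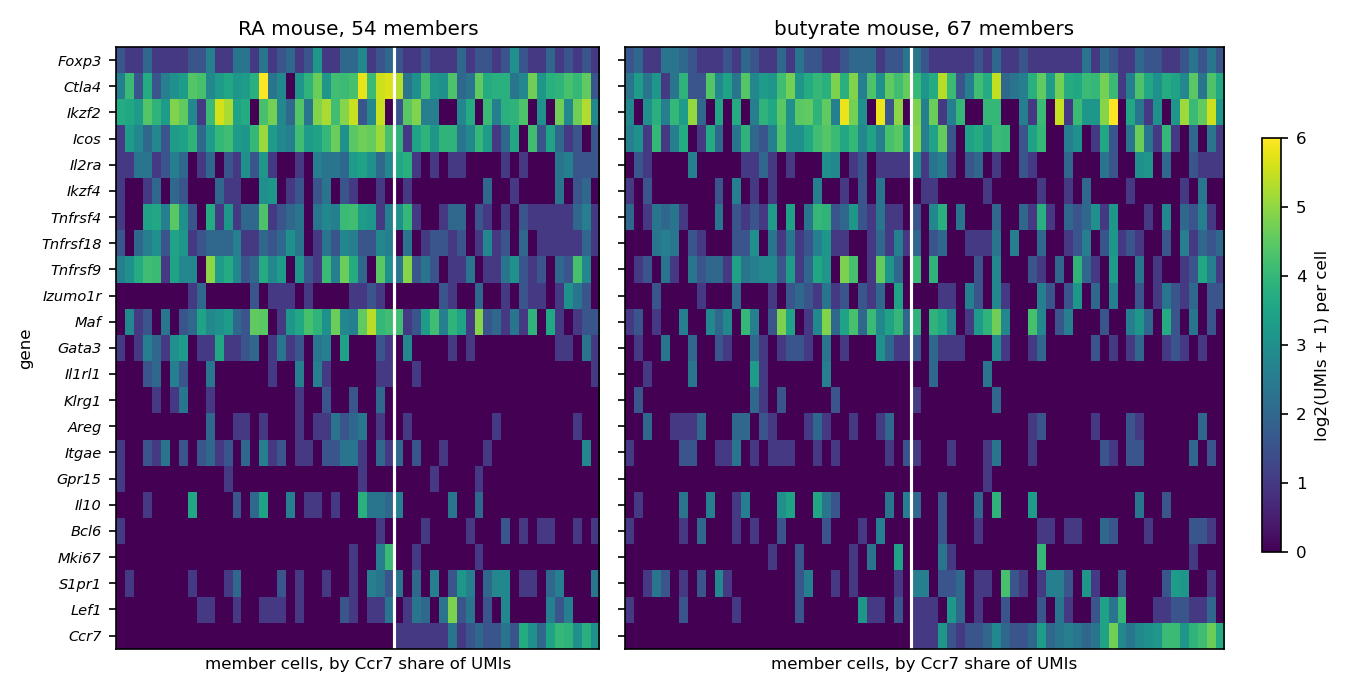
Each column is 1 member of the RA library (left, 54) or the butyrate library (right, 67), each row a gene, and colour the log2(UMIs + 1) in that cell; columns are ordered by the Ccr7 share of UMIs, and the white line separates members with no Ccr7 UMI (left of it) from the rest. Foxp3, Ctla4 and Icos run through both sides, while Il1rl1, Klrg1, Areg and Il10 lie mostly left of the line. Lef1 was found in 12 RA members on each side, and in 8 butyrate members left and 21 right of the line. S1pr1 was found in 11 RA members left and 14 right of it, and in 12 and 21 butyrate members.

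Members with a Ccr7 UMI had more Lef1, with ratios to the other members of 4.50 in the RA mouse and 2.36 in the butyrate mouse. In the RA mouse 27 of their 65 Lef1 UMIs were in 1 cell. Bach2 (4.02 and 2.86) and Satb1 (3.09 and 3.03) were higher too. S1pr1, the receptor for exit from tissue, was also higher (2.82 and 2). They had less Il1rl1, at 0.0738 (0.00855 to 0.291) from 2 UMIs and 0.225 (0.0805 to 0.555), and less Areg, at 0.145 (0.0278 to 0.478) from 3 UMIs and 0.230 (0.0996 to 0.488). They also had less Gata3 (0.216 and 0.525), Il10 (0.225 and 0.404) and Tnfrsf9 (0.389 and 0.372). Foxp3 itself was at 0.631 and 0.596, Ikzf2 at 0.520 and 0.682 and Maf at 0.569 and 0.535. Each of these ratios lay on the same side of 1 in both mice. Il2ra did not, at 0.509 in the RA mouse and 1.07 (0.689 to 1.67) in the butyrate mouse, and Klf2, the factor that drives S1pr1, was at 2.23 and 1.03 (0.845 to 1.27).

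Over all members, the defining genes Ctla4 and Ikzf2 differed between the mice by less than counting error, whereas Il2ra and several receptors of activated cells were lower and Ccr7 higher in the butyrate library. Of 5164 genes tested, with at least 20 UMIs over both member sets, 150 (2.9%) were at least 2-fold higher and 290 (5.62%) at least 2-fold lower in the butyrate library. In Foxp3-negative Cd4 T cells the counts were 276 (2.9%) higher and 331 (3.48%) lower of 9517. Of the 5164 genes 55.8% were lower and 44.2% higher in butyrate members, so a list with a similar share lower does not stand apart. The median log2 ratio of all genes was -0.07 in members and -0.02 in Cd4 T cells. Foxp3, which the rule used, was at 334 and 322 CPM (ratio 0.964). Ctla4 had a ratio of 0.911 (0.826 to 1.00), Ikzf2 of 0.951 (0.864 to 1.05) and Il10 of 1.14 (0.832 to 1.57), all with intervals that reached 1. In members without a Ccr7 UMI Ctla4 was at 0.870 (0.760 to 0.996) and Ikzf2 at 0.911 (0.801 to 1.035). In those with one Ctla4 was at 1.055 (0.910 to 1.224) and Ikzf2 at 1.195 (1.023 to 1.399).

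**Figure D4:**
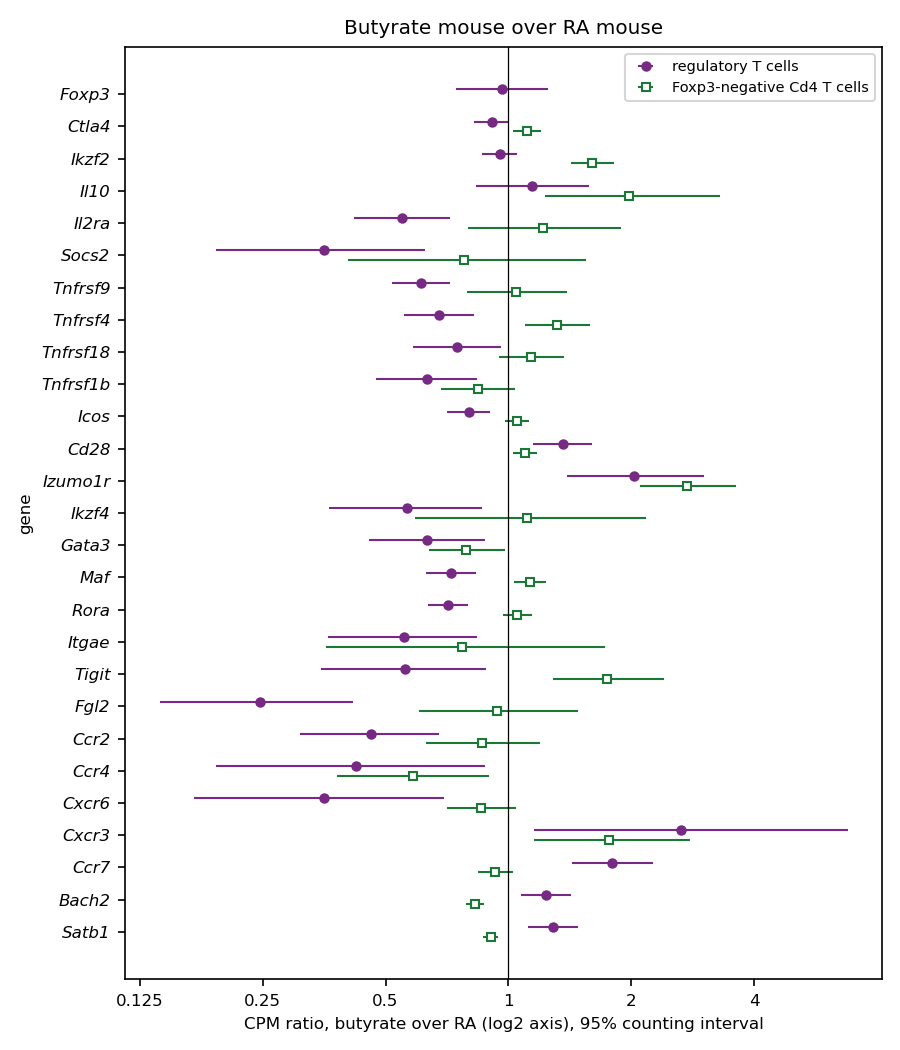
CPM ratio of the butyrate library over the RA library (x axis, log2 scale, exact 95% counting interval) for members (purple circles) and Foxp3-negative Cd4 T cells (green squares). Il2ra, Socs2, Tnfrsf9, Tnfrsf4 and Fgl2 lie left of 1 in members but at or above 1, or with an interval across it, in Cd4 T cells, and Ccr7 lies right of 1 in members but not in Cd4 T cells.

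Of the costimulators, 8 of 11 tested were lower in butyrate members, Tnfrsf25 by 2-fold, and Izumo1r was 2-fold higher (median log2 -0.53, against 0.13 in Cd4 T cells). Tnfrsf9 was at 1071 CPM in RA members and 655 CPM in butyrate members, a ratio of 0.611 (0.519 to 0.719; Cd4 T cells 1.05). Tnfrsf4 was at 0.676 (0.555 to 0.822, against 1.31 in Cd4 T cells). Tnfrsf1b, a TNF receptor that sustains these cells, was at 0.632 (0.474 to 0.839, against 0.841 in Cd4 T cells). Within members without a Ccr7 UMI Tnfrsf9, Tnfrsf4 and Tnfrsf1b were at 0.702, 0.613 and 0.580. Within those with one Tnfrsf9 was at 0.673 (0.501 to 0.904), Tnfrsf4 at 1.16 (0.810 to 1.675) and Tnfrsf1b at 0.935 (0.577 to 1.53). The 3 higher genes were Cd27 at 1.20 (0.916 to 1.58), Cd28 at 1.36 (1.15 to 1.60) and Izumo1r, a folate receptor family member of helper and regulatory T cells, at 2.03 (1.39 to 3.01), which was at 2.73 in Cd4 T cells as well. The per-member counts overlapped: Izumo1r had 0, 0 and 7 UMIs as lowest, median and highest in RA members and 0, 1 and 10 UMIs in butyrate members.

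Of the interleukin 2 list, 1 of 12 tested was 2-fold lower and 1 was 2-fold higher (median log2 0.03). Il2ra had a ratio of 0.549 (0.418 to 0.718) in members and 1.21 (0.798 to 1.88) in Cd4 T cells. Within members without a Ccr7 UMI the Il2ra ratio was 0.405 (0.267 to 0.601), and within those with one it was 0.849 (0.565 to 1.28). Socs2 was the 2-fold lower gene, at 0.354 (0.192 to 0.626), and Jak3, at 5 and 15 UMIs, the 2-fold higher one.

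Naive and recirculating genes leaned the other way, 8 of 9 tested higher (median log2 0.33), whereas none of 12 was higher in Cd4 T cells (-0.26). Ccr7 was at 337 and 605 CPM in members, a ratio of 1.79 (1.43 to 2.26), against 0.930 in Cd4 T cells. Its counts per member were 0, 0 and 15 UMIs in the RA mouse and 0, 1 and 25 UMIs in the butyrate mouse. Bach2, a factor that keeps regulatory T cells resting, was at 1.24 (1.07 to 1.43) and Satb1 at 1.29 (1.12 to 1.48). Within members without a Ccr7 UMI Bach2 was at 1.41 (1.03 to 1.95) and Satb1 at 1.15 (0.847 to 1.55), and within those with one they were at 1.00 (0.858 to 1.18) and 1.12 (0.959 to 1.32).

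Of the suppressive products, 8 of 16 tested were higher and 8 lower, 1 by 2-fold (median log2 -0.04). That gene was Fgl2, a secreted suppressive product, at 65 UMIs in 19 RA members and 19 UMIs in 9 butyrate members, a ratio of 0.247 (0.140 to 0.417), which was 0.587 when members with up to 1 Epcam UMI were added. Tigit, an inhibitory receptor, was at 0.557 (0.348 to 0.883). It was at 0.8 (0.454 to 1.39) within members without a Ccr7 UMI and at 0.371 (0.144 to 0.890) within those with one. Lgals1, galectin 1, was at 1068 and 575 CPM, a ratio of 0.538 (0.454 to 0.637). Of the transcription regulators 19 of 25 were lower (median log2 -0.16), Id3 by 2-fold, and 1 was 2-fold higher. Rora was at 0.712 (0.634 to 0.798) and Maf at 0.722 (0.627 to 0.831), against 1.05 and 1.13 in Cd4 T cells. Gata3 was at 0.633 (0.457 to 0.875), but 0.975 with up to 1 Epcam UMI allowed. The 2-fold higher regulator was Bcl6, the factor of follicular T cells, at 11 and 35 UMIs.

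Of the tissue-type genes 5 of 7 tested were lower and none by 2-fold (median log2 -0.34), and of the microbe-induced genes 5 of 8, 1 by 2-fold (-0.26). Of the homing receptors 11 of 15 were lower, 4 by 2-fold, and 1 was 2-fold higher (median log2 -0.38, but 0.33 over the genes that kept 20 UMIs in thinned cells). Itgae was at 0.554 (0.362 to 0.839). Cxcr6, which the homing and microbe-induced lists share, was at 31 and 13 UMIs (0.354, 0.170 to 0.697). Ccr2 was at 0.460 (0.309 to 0.675), but 0.712 with up to 1 Epcam UMI and 0.806 in thinned cells. The 2-fold higher receptor was Cxcr3, at 8 and 25 UMIs (2.64, 1.15 to 6.77), and 1.37 in members with 2 Foxp3 UMIs.

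Heat shock genes were higher in butyrate members, 10 of 12, and Hspa1b, Hspb1 and Hsph1 by 2-fold (median log2 0.57, but 0.20 with 2 Foxp3 UMIs asked for, against 0.01 in Cd4 T cells). The inducible chaperone Hspa1b was at 41 UMIs in 15 RA members and 158 UMIs in 19 butyrate members, a ratio of 3.25 (2.30 to 4.71), which ranged from 1.25 in members with 2 Foxp3 UMIs to 5.64 in thinned cells. Of the immediate early genes 9 of 14 were higher, Fos, Fosb and Jun by 2-fold (0.12), with Fos at 2.43 (1.61 to 3.75). Histone deacetylases had 3 of 5 tested genes lower, Hdac7 by 2-fold (-0.49), MHC class I 6 of 11 (-0.01), glycolysis 6 of 11, Hk2 by 2-fold (-0.17), cell cycle 6 of 11, Cdk1 and Rrm2 by 2-fold (-0.33), fatty acid oxidation 3 of 6 (0.08), interferon response 3 of 7 (0.04) and NF-kB response 8 of 12, 1 by 2-fold (-0.19). That NF-kB gene was Bcl2l1, a survival factor, at 63 and 22 UMIs (0.295, 0.173 to 0.486). Of the cell cycle UMIs, 170 were in 1 RA member and 124 in 1 butyrate member, and their part in these ratios was not tested. Of 3 helper cytokines tested Il17a was 2-fold higher and Tnfsf11 2-fold lower, and of the short-chain fatty acid list 1 of 2 was 2-fold higher. This was the lactate exporter Slc16a3, at 5 and 21 UMIs, a ratio of 3.55 that was 2.05 without the cell with most of its UMIs.

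Genes were ranked if found in at least 5 butyrate members with an interval clear of 1. They also had to reach, in at least 1 library, 1 in 10 of the level in each other cell class. The farthest up were Pak1, Rgcc, Map4k5, Cdk5rap2, Ipo11, Mapk8ip3, Prps1 and Lrrc41, each at 2 to 5 UMIs in the RA members. The last limit left out Hspb1, which was higher still, at 2 UMIs and 26 UMIs, 11 of the latter in 1 member. Pak1, a kinase of the cytoskeleton, was found in 2 of 54 and 11 of 67 members, a ratio of 8.87 (2.17 to 78.0), and 1.61 in thinned cells. Rgcc, a cell cycle regulator, was found in 5 and 11 members, a ratio of 5.58 (2.16 to 18.3), and 1.88 in thinned cells, against 0.584 in Cd4 T cells. By the same limits, with 5 RA members, the farthest down were Mt1, Znhit3, Ermn, Myc, Unc119, Slc15a3, Rnase4 and Grk5, and the genes left out that lay below Grk5 were Gsn, Cd63 and Fndc3b. Myc, a growth regulator, was at 18 UMIs in 10 RA members and 3 UMIs in 3 butyrate members, a ratio of 0.141 (0.0266 to 0.482). Unc119, an adaptor of T cell receptor signalling, was found in 13 and 4 members (0.154, 0.0385 to 0.452).

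One RA member carried much of the Mt1 signal. It had 16433 UMIs, 10 of Cd3 genes, 2 of Foxp3, 6 of Ctla4 and 19 of Ikzf2, and also 149 UMIs of the fibroblast gene Dcn. It held 199 of the 202 UMIs of the stromal genes Col1a1, Col3a1, Dcn and Pdgfra in RA members and 190 of 221 Mt1 UMIs. Without it the ratios, butyrate over RA, were 0.389 for Mt1, 0.344 for Rnase4 and 0.402 for Grk5, against 0.0573, 0.158 and 0.160 with it. It held no Ermn UMI, and Ermn, with 3 butyrate UMIs, was at 0.127 (0.0241 to 0.427), or 0.275 without the RA member that held most of its UMIs. Leaving out the RA member with the stromal UMIs was an alternative added after the data were seen. Of 7342 genes tested, 203 (2.765%) were then 2-fold higher and 186 (2.53%) lower than in Cd4 T cells. Of 5048 genes, 150 (2.97%) were higher and 247 (4.89%) lower in butyrate members.

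Markers of other cells were low in the members apart from that cell. The B cell list summed to 160 and 152 CPM in members against 50.3 and 67.9 CPM in Cd4 T cells, nearly all of it Ighm, the mu heavy chain gene, at 160 and 140.0 CPM in 26 of 54 and 29 of 67 members; of the 6 genes of the list 5 and 3 had 0 UMIs. Epithelial markers summed to 142 and 130.0 CPM (139 and 99.3 in Cd4 T cells), myeloid markers to 198 and 128 CPM (151 and 118) and plasma cell markers to 44.4 and 32.5 CPM (43.6 and 29.4). Stromal and endothelial markers summed to 772 and 198 CPM (658 and 270). Of these, the endothelial marker Pecam1 had 28 UMIs in RA members with a Ccr7 UMI and 31 in RA members without one. The NK and innate lymphoid list had 26.6 and 7.5 CPM with 4 of 5 genes at 0, and the gamma delta and CD8 list 5.92 and 45.0 CPM, the latter from 6 butyrate members, 4 of them with a Cd8a UMI. The part of these RNAs in the ratios above was not tested, except for the stromal RNA as given.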

How the data were processed

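Intestinal cells of 2 mice were profiled with the 10x Next GEM 3' v3.1 chemistry. The authors deposited 1 filtered matrix per library of raw UMI counts per gene and cell, made with Cell Ranger 7.1.0 per the file headers; per the submitters' processing notes, Cell Ranger 6.0.1, Seurat 4.0.3 and 4.0.4 and the mm10 genome were used. Whether intronic reads were counted is not given in the sources used here. Of 31253 gene identifiers, 31107 were in GENCODE M21.

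Barcodes were filtered and members chosen as the report states. UMIs were summed over cells per library and set and scaled to 1000000. Ratios have exact conditional binomial intervals, shares Clopper-Pearson intervals, all at 95%; a count of 0 allows 3 UMIs or cells. A 2-fold ratio was the call rule. Classes used as background needed 2 UMIs of Cd79a or Epcam, 3 summed myeloid or stromal UMIs or 5 of Jchain. Thinned values use 1000 UMIs per cell. Scrublet, run in scanpy 1.11.5, marked only 2 and 5 barcodes at its own threshold, so no doublet was removed; an alternative leaves out the highest scores (1 and 3 members). The members and the 26 gene lists (281 of 283 genes in the files) were chosen with earlier results of these data known. Named genes are all of the regulatory T cell lists and up to 4 of each other list. By ratio they are also the 15 highest and 10 lowest against Cd4 T cells. These needed 20 UMIs per library and 10 members with a UMI or, for lower genes, 5 comparison cells. The lower genes are also ranked with both minimums. For butyrate over RA they are the 8 highest and lowest (interval without 1, 5 members with a UMI). Mitochondrial, ribosomal, immunoglobulin, receptor segment, Y-linked and unnamed genes and Xist were left out. Genes under 1 in 10 of the level in another cell class in both libraries were left out too. Genes named outside this rule, such as Jak3, Ighm, Mcm6, Egr1, Nfkbid, Hk2, Phgr1 and Dcn, were picked after their values were seen. Calculations used Python 3.11.15, numpy 2.4.6, scipy 1.17.1 and pandas 2.3.3, and were tested on simulated data.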

Additional observations from a re-analysis of the deposited data

Results flagged for a closer look

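For 6 genes the members lay above Foxp3-negative Cd4 T cells in one library and below them in the other, with both counting intervals clear of 1. The difference between the mice was not tested, since each group has 1 mouse. The Ccr7 ratio was 0.782 (0.634 to 0.957) in the RA library and 1.51 (1.31 to 1.73) in the butyrate library, with UMIs in 23 of 54 and 35 of 67 members. Hspa1a was at 0.605 (0.467 to 0.773) and 1.365 (1.14 to 1.62), and Hspa1b at 0.416 (0.294 to 0.574) and 1.65 (1.38 to 1.96). Hspb1, a small heat shock protein, was at 0.118 (0.0140 to 0.442) and 4.14 (2.46 to 6.84), from 2 RA members and 5 butyrate members. Il17a was at 0.172 (0.0813 to 0.322) and 2.06 (1.29 to 3.19), with 23 of 27 butyrate UMIs in 1 member. Dcn was at 1.78 (1.46 to 2.16) and 0 (0 to 0.243), with 149 of 151 RA UMIs in 1 member.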

How the results depend on the processing

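No paired analysis was possible because each group has 1 library, and for the same reason no replicate could be left out. Depth and 121 cells limit every value to counting error, and genes with few UMIs were not comparable. Of 503 alternative values of the butyrate ratios, 453 moved by less than counting error, 49 by more and 1 reversed; of 1348 against Cd4 T cells, 1167, 171 and 10. The T cell share ratio was 0.986 when the rule was applied to thinned cells. Genes 2-fold higher than in Cd4 T cells numbered 67 in thinned cells (2.855% of 2347 tested) and 115 with at least 50 UMIs (2.42% of 4747). With at least 1 UMI they numbered 1055 (7.36% of 14339), and against all Foxp3-negative T cells 334 (3.52% of 9491). Lower ones numbered 75 in thinned cells (3.20%) and 101 with at least 50 UMIs (2.13%). The main shares were 2.83% higher and 2.4% lower. Genes higher in butyrate members numbered 50 in thinned cells (4.39% of 1138 tested), 25 with at least 50 UMIs (0.929% of 2690) and 854 with at least 1 (6.39% of 13373). Lower ones numbered 62 (5.45%), 49 (1.82%) and 1420 (10.6%). The main shares here were 2.9% higher and 5.62% lower. Against Cd4 T cells in thinned cells, Entpd1 (butyrate) was at 0.556, Izumo1r (RA) at 0.906, Bcl6 (butyrate) at 1.13, Il22 (RA) at 1.44 and Il17a (butyrate) at 0.890; Il17a was at 0.588 as a mean of per-cell CPM and 0.566 with 2 Foxp3 UMIs. Against all Foxp3-negative T cells, Gzmb was at 0.402 (RA) and 0.670 (butyrate) and Stat5b (RA) at 1.04. The stromal list's median log2 ratio in the butyrate library was 0.17 with at least 1 UMI. Butyrate over RA, Itga4 was at 1.26 in thinned cells. Where no gene number or cell number shows it, the cause was not tested.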

Other observations

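Ctla4 UMIs were also found outside T cells. They were in 35.5% and 26.9% of B cells, 32.2% and 17.2% of epithelial cells, 28.5% and 16.6% of stromal cells and 71.6% and 67.2% of plasma cells of the RA and butyrate libraries, at 24.3 to 223 CPM with myeloid cells included, against 2353 and 2142 CPM in members. Icos, a gene that neighbours Ctla4 in the genome, was found in at most 3.45% of the cells of any of these classes. Cd28, which also lies near Ctla4 on chromosome 1, was found in 64.5% and 31.7% of plasma cells. In the other classes its share was 1.01% to 7.95%. Plasma cells were deeper, with medians of 15598 and 15699 UMIs against 4241 and 4618 in B cells. The shares for Ctla4 differed between classes.

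Gzmb, a cytotoxic granule protease, was at 305 and 330 CPM from 10 and 12 members, while its level in Cd4 T cells was 28.1 CPM in the RA library and 157 CPM in the butyrate library.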
